A study of Mus musculus with 16 samples.

Results

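Plasmacytoid dendritic cells (pDC) sorted from mouse spleen were compared between WT and CKO, the label of cells made deficient in Etv6, a repressor of the ETS family of transcription factors. The comparison rests on 4 of the 16 RNA libraries of the series, 2 labelled CKO and 2 labelled WT, and covers the autosomal genes expressed in these cells. A gene was a member when it passed the filter on low counts over the whole table, lay on an autosome and had a mean of at least 0.5 CPM (counts scaled to the size of each library) over the 4 pDC libraries. This left 11608 members of the 24116 genes in the table. The other 12 libraries held the splenic subsets named Dec205 (classical DCs of the cross-presenting kind), Esamlo and Esamhi (classical DCs with low or high ESAM), also with 2 WT and 2 CKO libraries each. The labels give no strain, age, floxed allele or Cre driver, and do not say whether libraries came from separate or pooled mice, so p-values measure only the spread between these libraries.

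Plasmacytoid DCs are the cells of the immune system that release the most type I interferon when endosomal TLR7 or TLR9 bind nucleic acid. They depend on the transcription factor TCF4, carry the surface proteins Siglec-H and BST2, and leave the bone marrow as largely non-dividing cells. ETV6 binds the ETS core motif and recruits corepressors, so it is known mainly for keeping target genes low.

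The pDC libraries held 17129488 to 18030706 counts, within the range of all 16 (14434287 to 20709265), and 3 counts in 1 of them equalled 0.152 to 0.161 CPM. In a principal component analysis of the 4 libraries the first component, with 48.6% of the variance, placed the libraries labelled CKO (25.1 and 41.4) apart from those labelled WT (-10.4 and -56.1), and the second, with 33.0%, set WT replicate 1 (51.8) apart from the other 3. Xist, transcribed from the inactive X of females, was at 1.44 and 0 CPM in WT and 156 and 199 CPM in CKO, so that effects of genotype and of sex cannot be told apart in these libraries. The same holds in Dec205, Esamlo and Esamhi, where Xist was at 0 to 1.28 CPM in WT and 114 to 355 CPM in CKO. In bulk RNA, fewer cells of a type and less RNA per cell cannot be told apart either.

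The level of Etv6 itself overlapped between the groups in pDC. It was at 346 and 352 CPM in WT and at 363 and 322 CPM in CKO (log2 fold change -0.03 ± 0.10, SE; adjusted p = 1). In Dec205 the mean level of Etv6 went from 356 to 212 CPM (-0.75 ± 0.10, adjusted p = 0.000996), and the difference between these effects passed the test (0.72, adjusted p = 0.0241). The count covers the whole gene and the deleted part is not given in the sources used here, so the level checks neither the deletion nor the labels, and directions below are those of the libraries labelled CKO.

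The markers of pDC were high in all 4 libraries. Siglech, a surface receptor used as a marker of mouse pDC, was at 5410 and 5685 CPM in WT and 5671 and 5979 CPM in CKO. Tcf4, the regulator on which the lineage depends, was at 1409 and 1528 against 1332 and 1344 CPM. Bst2, the antiviral surface protein recognised by the antibody PDCA-1, was at 1179 and 1141 against 888 and 1161 CPM. None of these 3 passed the test (Siglech, adjusted p = 0.983; Tcf4, adjusted p = 0.911; Bst2, adjusted p = 0.732). Of the 22 surface and effector genes of pDC identity 0 were called higher and 0 lower, with a median log2 fold change of -0.06. Both CKO libraries lay above both WT libraries in 6 of them and below in 10, against 21.8% and 18.4% of all members. Cox6a2 and Cd209d, named after their values were seen, went from means of 275 to 700 and 289 to 187 CPM without passing (adjusted p = 0.0592 and 0.156). Of 28 transcription regulators of the lineage 0 were called higher and 0 lower, with a median of -0.04. Both CKO libraries lay above both WT libraries in 6 of these and below in 8. The median over all members was 0.01. Spib, a pDC factor of the ETS family, was at 923 and 837 against 641 and 791 CPM (adjusted p = 0.758), and Irf8 at 6810 and 6515 against 6752 and 6546 CPM (adjusted p = 1).

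The pDC labelled CKO differed from WT in few genes, mainly upwards. Of the 11608 members, 186 were higher in CKO (1.6%) and 47 lower (0.405%), at an adjusted p under 0.05, and 233 were called in all (2.01%). These shares over all members stand beside every count of called genes in a list below. The median log2 fold change of the higher genes was 1.54 and that of the lower genes -0.86, and 128 of the higher but 18 of the lower genes changed by at least 2-fold (1.1% and 0.155% of members). The higher genes were low in WT, with a median of 9.18 CPM there and 29.9 CPM in CKO, and 16 of them had no count in either WT library. In all 233 genes the CKO libraries lay beyond both WT libraries, which was also true of 2526 members upwards (21.8%) and 2138 downwards (18.4%) whatever their p. Without CKO replicate 2 the number of called genes was 152, and with the spread estimated from the 4 pDC libraries alone it was 84.

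**Figure D1:**
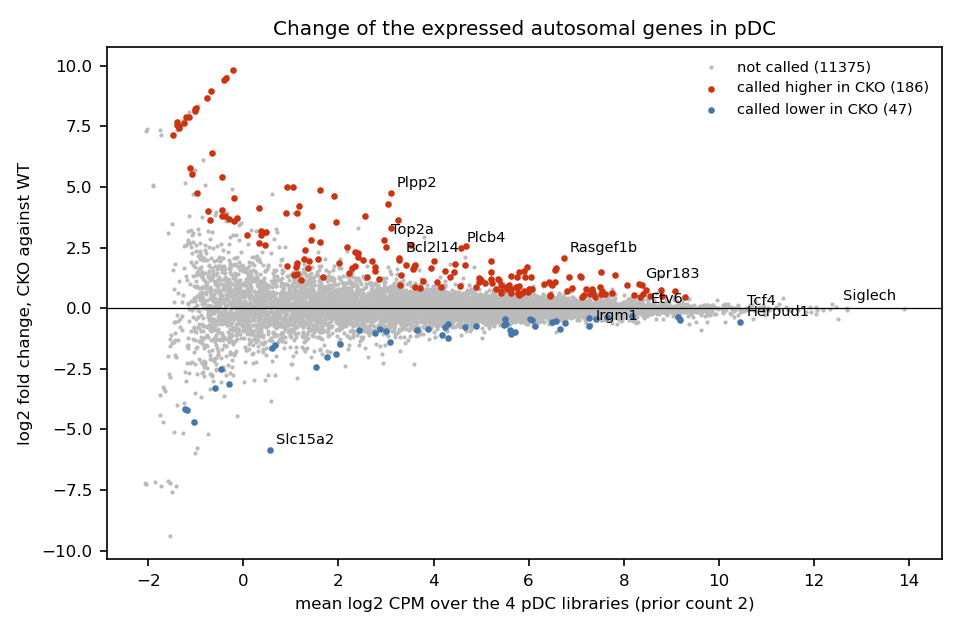
Log2 fold change of CKO against WT (y axis) by mean log2 CPM over the 4 pDC libraries (x axis), 1 point per member; red points are the 186 called higher, blue points the 47 called lower. The diagonal line of red points at the upper left holds genes with no count in WT, whose fitted fold change depends on the prior count and is no measure of size; Etv6, Tcf4 and Siglech lie near 0.

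Of 30 members of the list of phospholipase C, G protein and Ras exchange factor genes, 4 rose (13.3%) and 3 fell, with a median of 0.03. Over all members 1.6% rose and 0.405% fell. Those that rose were Rasgef1b, Plcb4, Plcb1 and Plpp2. Rasgef1b, an exchange factor for small GTPases of the Ras superfamily, was at 47.4 and 57.0 CPM in WT and at 200 and 239 CPM in CKO (log2 fold change 2.07 ± 0.12, adjusted p = 6.31e-06). Plcb4, a phospholipase C that cleaves PIP2 downstream of G proteins, was at 10.9 and 9.15 against 56.1 and 55.6 CPM (2.48 ± 0.16, adjusted p = 6.31e-06). Both groups were tight for these genes, and the gap between them was several times the spread within either. Plcb1, the neighbour of Plcb4 on chromosome 2 and an enzyme of the same kind, went from 0.107 and 0.965 to 10.6 and 10.02 CPM (4.24 ± 0.71, adjusted p = 0.00946). Plpp2, a lipid phosphatase of the plasma membrane that removes phosphate from phosphatidic and lysophosphatidic acid, went from 0.962 and 2.39 to 36.6 and 54.6 CPM (4.75 ± 0.50, adjusted p = 0.00032).

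The 3 members of that list that fell were Rhob, Adap1 and Plekhg3. Rhob, an endosomal GTPase, was at 65.2 and 82.7 CPM in WT and 33.5 and 40.7 CPM in CKO (-0.995 ± 0.22, adjusted p = 0.0369). Adap1, a GTPase-activating protein for ARF6, was at 19.1 and 15.5 against 11.3 and 7.23 CPM (adjusted p = 0.0156), and Plekhg3, an exchange factor for small GTPases, at 18.8 and 20.5 against 9.62 and 12.3 CPM (adjusted p = 0.0193). In all 3 both CKO libraries lay below both WT libraries. Each lost its call without 2 or 3 of the 4 pDC libraries taken singly, with adjusted p of up to 0.235 for Rhob, 0.0985 for Adap1 and 0.165 for Plekhg3. Rgs12, which speeds the turnover of GTP on G alpha subunits, rose from 5.66 and 5.59 to 19.1 and 20.1 CPM (1.80 ± 0.27, adjusted p = 0.00325).

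**Figure D2:**
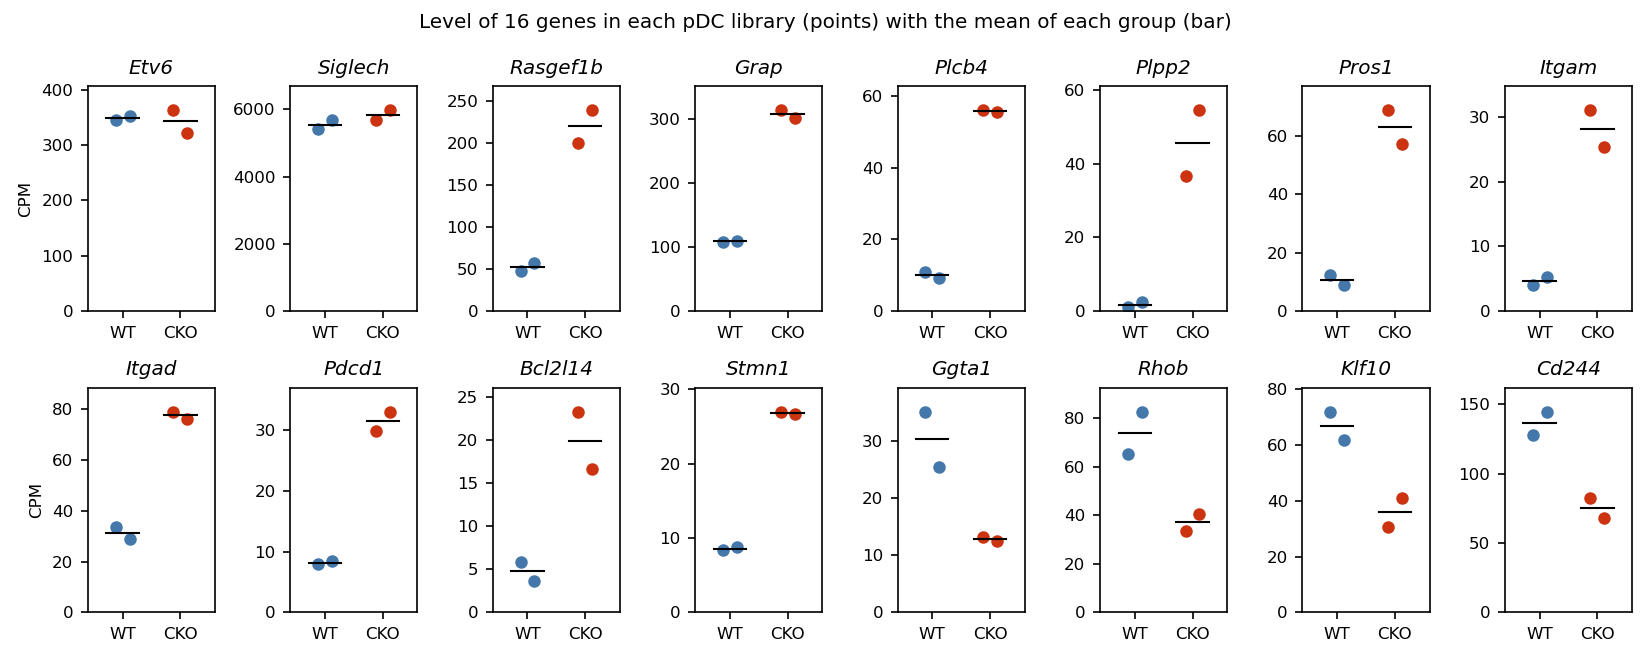
CPM (y axis, from 0, a scale of its own per gene) of 16 genes in each pDC library, points, with the mean of the 2 libraries of a group as a bar. Etv6 overlaps between the groups and Siglech differs little, while the other 14 genes separate WT from CKO, with 4 of them (Ggta1, Rhob, Klf10, Cd244) lower in CKO.

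Pros1, the anticoagulant protein S that also bridges apoptotic cells to TAM receptors, was at 12.2 and 8.79 CPM in WT and 68.8 and 57.3 CPM in CKO (2.58 ± 0.31, adjusted p = 0.000721). It was the 1 gene called among 9 members of the TAM and coagulation list. The TAM receptor Axl was at 3.04 and 2.90 against 3.01 and 3.70 CPM (adjusted p = 1), and Mertk, another TAM receptor, at 0 in all 4 libraries. Pdcd1, the inhibitory receptor PD-1, went from 7.96 and 8.43 to 29.9 and 33.1 CPM (1.94 ± 0.34, adjusted p = 0.00941), although the call was lost without WT replicate 1, WT replicate 2 or CKO replicate 2, with an adjusted p of up to 0.0636. Crim1, a transmembrane binder of BMPs, rose from 0.801 and 0 to 12.7 and 13.02 CPM (5.004 ± 0.73, adjusted p = 0.00276), and Chst10, the sulfotransferase of the HNK-1 carbohydrate, from 0.641 and 0 to 7.72 and 3.59 CPM (4.14 ± 0.61, adjusted p = 0.00304). Entpd5, an ER nucleotidase, rose from 4.97 and 4.83 to 24.9 and 14.04 CPM, and Cnn3, an actin-binding calponin, from 9.94 and 13.3 to 44.6 and 37.2 CPM. Gpr183, the oxysterol receptor that guides DC positioning in the spleen, rose from 234 and 216 to 433 and 470 CPM (1.00 ± 0.11, adjusted p = 0.000569) and was the only one of 17 chemokine receptor and migration genes called. Ccr9, the gut-homing receptor of pDC, was at 1617 and 1480 against 2005 and 1849 CPM, a difference that did not pass (adjusted p = 0.849).

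A run of beta2 integrin alpha chains on chromosome 7 rose together. Itgam (CD11b) went from 4.01 and 5.18 to 31.1 and 25.4 CPM (2.62 ± 0.32, adjusted p = 0.00084). Itgad (CD11d) went from 33.4 and 28.9 to 79.0 and 76.1 CPM (1.31 ± 0.21, adjusted p = 0.00462), and Itgax (CD11c) from 144 and 112 to 226 and 189 CPM (0.70 ± 0.13, adjusted p = 0.014). They were the 3 called genes among 25 of integrins and adhesion, whose median was -0.07. The 3 genes span 128062640 to 128205504 of chromosome 7 in GRCm38. Cox6a2, a respiratory subunit and a member of the pDC identity list above, starts before the end of Itgad. It was placed here after its values were seen. Its level was 272 and 278 against 620.2 and 779 CPM without passing (1.35 ± 0.32, adjusted p = 0.0592). The CKO effect on Cox6a2 in pDC was lower than the mean effect in the other subsets, by a difference of -3.71 (adjusted p = 0.00693). Itgb2, their common beta chain, was at 471 and 365 against 475 and 479.5 CPM (adjusted p = 0.621), and Itgal, another partner of it, at 404 and 431 against 557 and 533 CPM (adjusted p = 0.197). Reads of overlapping genes cannot be assigned by strand, and without WT replicate 2 only Itgam of the 3 stayed called.

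Genes of mitosis rose. Of 53 members of the list of mitosis and chromosome segregation genes, 21 rose (39.6%, against 1.6% of all members) and 0 fell. The median log2 fold change was 1.19. In 38 both CKO libraries lay above both WT libraries, which held for 21.8% of all members. The levels were low: the summed CPM of the list was 327 and 391 in WT pDC and 603 and 503 in CKO pDC, against 1707 to 2942 in the 12 libraries of the other subsets. Top2a, the topoisomerase that untangles replicated chromosomes, was at 3.26 and 2.64 CPM in WT and 26.5 and 14.9 CPM in CKO (2.81 ± 0.29, adjusted p = 0.000287). Ube2c, the conjugating enzyme of the anaphase-promoting complex, went from 1.122 and 0.102 to 10.2 and 8.09 CPM (3.91 ± 0.47, adjusted p = 0.000826). Kif22, a chromokinesin, went from 0.801 and 0.152 to 9.57 and 5.09 CPM (3.94 ± 0.45, adjusted p = 0.00057). In each of these the lower CKO library lay at more than 4 times the higher WT library.

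Members with the same direction covered the steps from entry into mitosis to cell division. Cdk1, the mitotic kinase, was at 1.87 and 0.762 against 5.60 and 4.45 CPM (adjusted p = 0.00388). Its cyclin Ccnb2 was at 2.78 and 2.24 against 12.2 and 9.64 CPM (adjusted p = 0.00165), and Ccna2 at 3.10 and 4.93 against 9.51 and 14.1 CPM (adjusted p = 0.0137). The spindle motor Kif11 went from 2.35 and 1.37 to 9.78 and 11.5 CPM (adjusted p = 0.000522), and Kif23, a motor of the central spindle, from 4.06 and 5.34 to 10.7 and 10.8 CPM (adjusted p = 0.00159). Aurkb, Bub1, Ttk, Spc24, Cenpe and Cenpf of the kinetochore and its checkpoint, Sgol1 and Ncaph of cohesin protection and condensin, and Mki67, Pbk, Hmmr and Ckap2l were called as well. Of these named genes, Ccna2, Aurkb, Bub1, Ttk, Spc24, Cenpe, Cenpf, Mki67, Pbk and Hmmr lost their call without at least 1 of the 4 pDC libraries, with an adjusted p of up to 0.301, in Cenpe. Kif2c, a microtubule depolymerase, had 0 counts in both WT libraries and 17 and 47 in CKO, at least 21.9-fold higher when set against 3 counts over the 2 WT libraries. Hmmr had 3 counts in WT and 139 in CKO, a ratio of 47.3 with a 95% exact counting interval from 15.9 to 232. Such intervals cover counting error only, because the reads came from amplified cDNA without molecular identifiers. Of the well-known genes not called, Ccnb1 was at 1.55 and 0 against 4.55 and 3.21 CPM (adjusted p = 0.208), Plk1 at 1.496 and 0.813 against 4.33 and 1.02 CPM (adjusted p = 0.472) and Aurka at 1.87 and 4.27 against 5.97 and 4.39 CPM (adjusted p = 0.393).

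**Figure D3:**
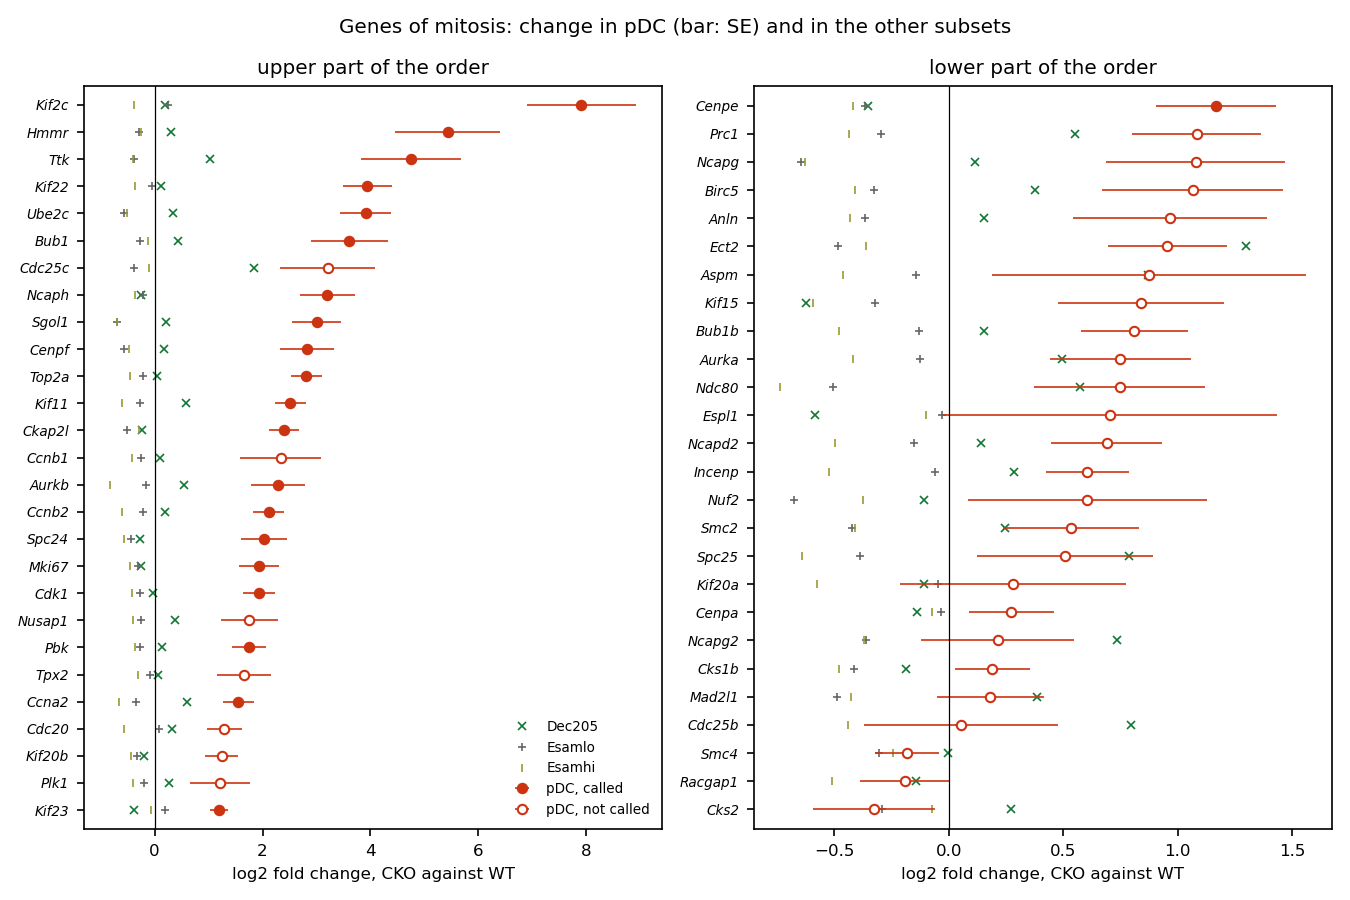
Log2 fold change of CKO against WT (x axis) for the 53 members of the mitosis list, ordered by their value in pDC (red circles with SE bars, filled when called), with Dec205, Esamlo and Esamhi as small marks; the right panel continues the order on a narrower scale. In pDC 50 of 53 lie above 0 and 21 are called; in Esamhi the median is -0.43.

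The CKO effect in pDC exceeded the mean effect of the other 3 for 21 of the 53 genes and fell below it for 0, where 1.59% of members passed that test in either direction, 1.04% upwards and 0.543% downwards. The median effect of the list was 0.18 in Dec205, -0.29 in Esamlo and -0.43 in Esamhi. For Top2a the difference between pDC and the mean of the others was 3.02 ± 0.32 (adjusted p = 0.000767), with effects of 0.05, -0.22 and -0.46 in Dec205, Esamlo and Esamhi. The calls depend on the spread shared by all 16 libraries: from the 4 pDC libraries alone 1 of the 53, Top2a, passed (adjusted p = 0.0274), and without CKO replicate 1 there were 15. The summed CPM of the B cell markers stood at 226.5 and 212.8 in WT and 362.5 and 251.4 in CKO beside this (0 of 14 called). That of 10 DC and lymphoid progenitor genes stood at 3363 and 3268 in WT and 3897 and 4435 in CKO, most of it from Ly6d. The part of both in the result was not tested.

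Of 38 members of the DNA replication list 2 rose and 0 fell, with a median of 0.16. Cdc6, which loads the replicative helicase, went from 0.267 and 0.0508 to 2.91 and 1.66 CPM (adjusted p = 0.00726), and Rrm2, the regulated subunit of ribonucleotide reductase, from 3.53 and 2.29 to 15.01 and 7.82 CPM (adjusted p = 0.00591). Neither was called without WT replicate 2. The helicase subunit Mcm5 was at 23.1 and 27.8 against 23.9 and 24.4 CPM (adjusted p = 0.953), and the sliding clamp Pcna at 51.1 and 43.3 against 45.0 and 59.4 CPM (adjusted p = 0.86). Of 28 genes in the histone list 2 rose and 0 fell, with 27 above 0 and a median of 0.39. They were H2afx, the variant phosphorylated at DNA breaks (49.4 and 51.7 against 83.3 and 77.2 CPM, adjusted p = 0.00978), and Stmn1, placed in that list although its product stathmin binds tubulin (8.39 and 8.79 against 27.0 and 26.7 CPM, adjusted p = 2.07e-05). Among 26 cell cycle regulators 2 rose and 0 fell, with a median of 0.04. E2f2, an activating E2F factor, was at 0.962 and 1.27 against 5.71 and 2.46 CPM (adjusted p = 0.0371), and E2f7, a repressing one, had 1 count in WT and 58 in CKO, a ratio of 59.3 with an exact counting interval from 10.2 to 2380. Fanca, of the Fanconi anaemia core complex, was the 1 gene called among 21 of DNA repair, at 0.214 and 0 against 1.43 and 2.14 CPM (adjusted p = 0.0136). H2afx, E2f2, E2f7 and Fanca lost their calls without 2 or 3 of the 4 libraries taken singly, with adjusted p of up to 0.0708, 0.312, 0.151 and 0.0767.

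Promoter sequences of 4 of the called mitosis genes are given because they carry the letters by which such genes are usually recognised. These are the cell cycle homology region (TTTGAA) and the CCAAT box (CCAAT), each searched on both strands. The first is bound by MuvB complexes, which are DREAM in resting cells and carry B-MYB in dividing ones, and the CCAAT box by NF-Y. The stretches below end at the base before the start site, are written 5′ to 3′ on the strand of the gene in RefSeq's GRCm38.p6, and show matches to those letters in capitals (as TTCAAA and ATTGG where they lie on the other strand). In Kif22 the capitals also mark 2 matches to the ETS letters CCGGAAGT, the longer runs.
Top2a, chr11:99024190-99024299, minus strand: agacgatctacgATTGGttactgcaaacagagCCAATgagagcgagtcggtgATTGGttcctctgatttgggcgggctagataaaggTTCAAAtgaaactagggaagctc
Cdk1, chr10:69352913-69353012, minus strand: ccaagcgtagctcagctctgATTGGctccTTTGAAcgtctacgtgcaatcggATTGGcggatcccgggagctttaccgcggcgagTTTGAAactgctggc
Ube2c, chr2:164769829-164769928, plus strand: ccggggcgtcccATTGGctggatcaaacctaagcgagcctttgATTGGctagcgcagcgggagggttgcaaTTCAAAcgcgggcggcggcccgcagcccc
Kif22, chr7:127042421-127042550, minus strand: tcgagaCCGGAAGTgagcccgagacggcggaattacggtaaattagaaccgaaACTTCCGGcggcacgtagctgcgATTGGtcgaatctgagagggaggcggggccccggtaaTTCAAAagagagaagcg
In these 4 promoters a cell cycle homology region begins 15 to 29 bases before the start, with CCAAT matches upstream of it.

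Over windows of 300 bases around the start, 76.1% of 46 windows of the mitosis list held TTTGAA, against 12.2% of the windows of all members and 17.9% of all windows in the table. CCAAT was in 76.1% of the mitosis windows, 37.8% of members' windows and 37.4% of all. Among all members called higher, 23.8% of 206 windows held TTTGAA and 41.3% CCAAT. The ETS letters were found in 2.91% of the windows of members called higher and 4.65% of those called lower, against 8.45% of members' windows and 3.89% of all windows. RefSeq windows were at hand for 9265 of the 11608 members. A match is a description of letters and no evidence of binding.

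Of 49 members of the type I interferon response list 11 rose (22.4%, against 1.6% of all members) and 0 fell, with a median of 0.11. Oas2, which makes the oligoadenylate that activates RNase L, went from 1.28 and 2.34 to 36.7 and 35.6 CPM (4.31 ± 0.53, adjusted p = 0.000911). Rtp4, an interferon-induced chaperone of membrane receptors, went from 0.588 and 0.813 to 13.5 and 21.8 CPM (4.63 ± 0.51, adjusted p = 0.000454). Ifit3, of the family that binds viral RNA, went from 0 and 1.47 to 17.0 and 27.4 CPM (4.88 ± 0.93, adjusted p = 0.0171), but was not called without WT replicate 1 or CKO replicate 2 (adjusted p up to 0.0754). Oas1c had no count in WT and was at 2.70 and 3.11 CPM in CKO, at least 37.1-fold higher against 3 counts over the WT libraries.

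Samd9l, an antiviral restriction factor, rose from 52.5 and 54.2 to 175 and 162 CPM (1.66 ± 0.25, adjusted p = 0.00335). Usp18, which removes ISG15 and damps the interferon receptor, rose from 63.5 and 62.1 to 121 and 129 CPM (1.00 ± 0.12, adjusted p = 0.000917). Ddx58, the RNA sensor RIG-I, rose from 1.98 and 2.44 to 10.5 and 11.6 CPM (adjusted p = 0.00321). Ifi27 and Ifit2 rose by 1.06 and 1.03 on the log2 scale, and Ifit3b and Oas1b are close copies of genes named here that may share reads with them. Ifit2, Ifit3b and Oas1b lost their calls without 3, 2 and 4 of the 4 libraries taken singly, with adjusted p of up to 0.251, 0.0973 and 0.191. Parp10, an interferon-induced ADP-ribosyltransferase outside the list, rose from 4.59 and 8.79 to 25.1 and 21.5 CPM.

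Several of the best-known interferon-stimulated genes did not pass the test. Isg15 was at 15.1 and 16.1 against 13 and 18.4 CPM (adjusted p = 1), Mx1 at 27.2 and 31.9 against 28.3 and 38.1 CPM (adjusted p = 0.892) and Irf7 at 597 and 553 against 563 and 562 CPM (adjusted p = 1). In Dec205, 19 of the 49 genes were called higher and 2 lower, with a median of 0.57, where 3.57% and 3.47% of all members were called. In pDC, both CKO libraries lay above both WT libraries in 23 of the 49 genes and below them in 10. Over all members these shares were 21.8% and 18.4% in pDC. Without CKO replicate 2 the list had 7 called genes, and with the 4 pDC libraries alone 5.

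**Figure D4:**
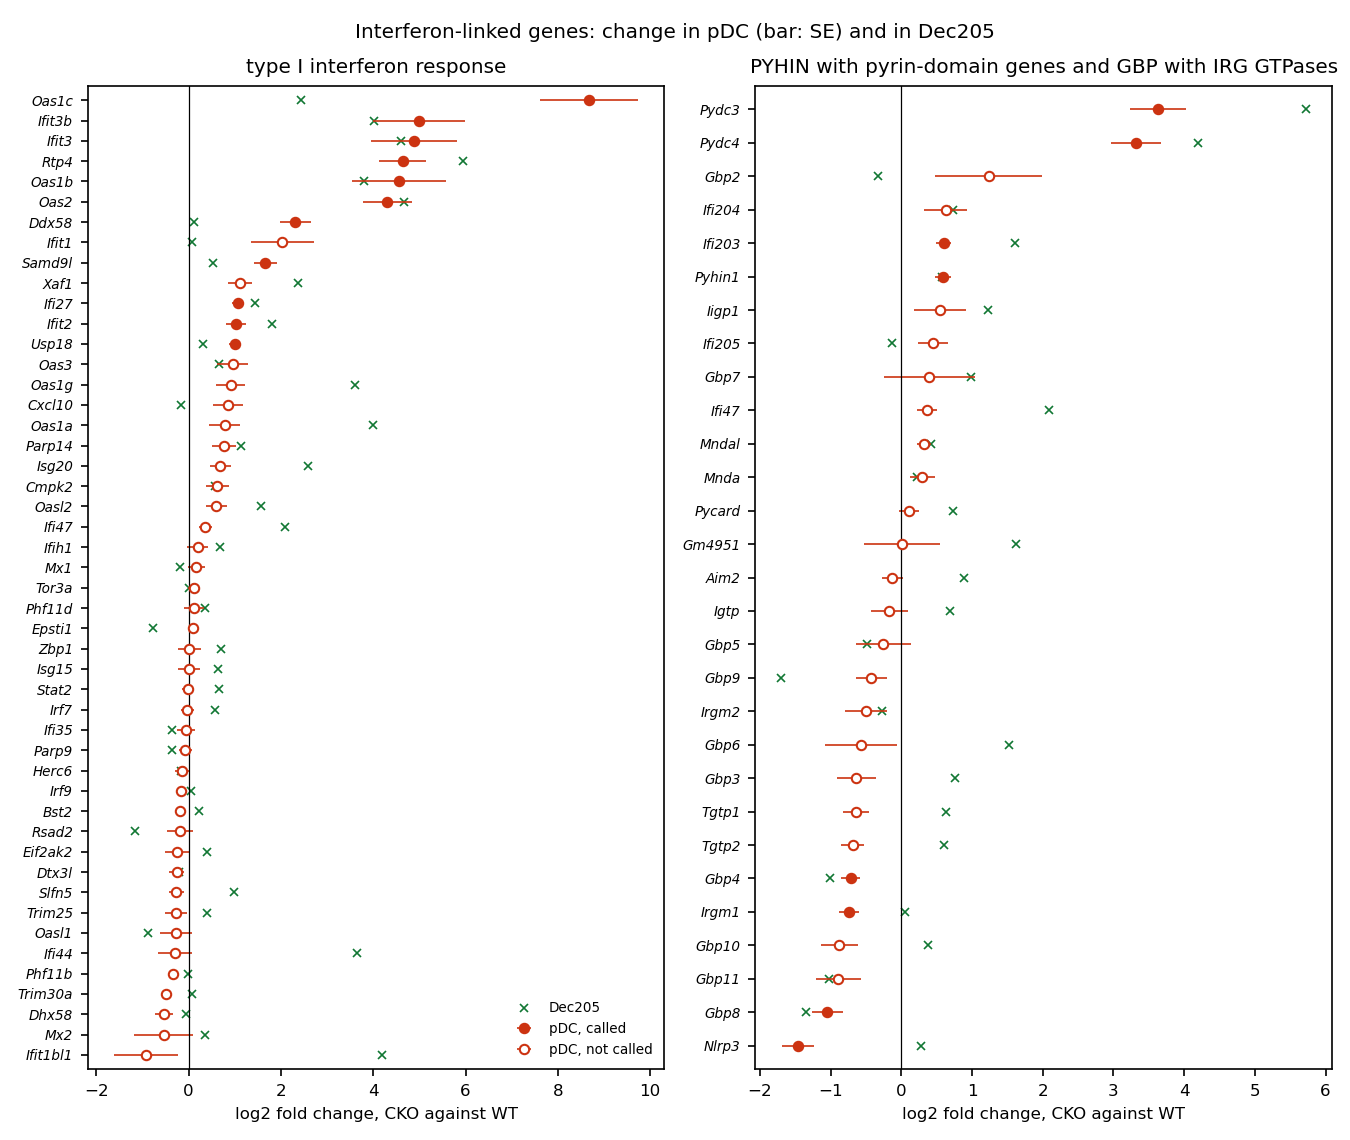
Log2 fold change of CKO against WT (x axis) in pDC (red circles with SE bars, filled when called) and in Dec205 (green crosses) for genes of the type I interferon response (left) and for the PYHIN, pyrin-domain, GBP and IRG genes (right). Filled circles are above 0 for 11 interferon genes, while Isg15, Mx1 and Irf7 lie near 0 and the called GBP and IRG genes lie below it; the value of Oas1c has no count in WT behind it.

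Of 11 PYHIN and pyrin-domain genes, a group that includes nucleic acid sensors, 4 rose (36.4%) and 1 fell, with a median of 0.45. Over all members 1.6% rose and 0.405% fell. In Dec205, 7 of these 11 were called higher and 0 lower, where 3.57% and 3.47% of all members were called. Of 18 genes of the GBP and IRG families of GTPases 0 rose, 3 fell and 15 did not pass, with a median of -0.53. In Dec205, 3 of the 18 were called higher and 3 lower, with a median of 0.49. Pydc3 went from 1.55 and 4.01 to 34.2 and 34.8 CPM (3.62 ± 0.40, adjusted p = 0.000454) and Pydc4 from 3.21 and 2.18 to 29.3 and 24.4 CPM (3.32 ± 0.36, adjusted p = 0.000415); these near-identical genes can share reads. Ifi203 rose from 144 and 161 to 228 and 233 CPM and Pyhin1 from 137 and 119 to 188 and 196 CPM. Each of these last 2 lost its call without 3 of the 4 libraries taken singly (adjusted p up to 0.0916 and 0.182). The gene that fell was Nlrp3, the inflammasome sensor with a pyrin domain, at 5.77 and 7.62 against 2.01 and 2.84 CPM (-1.47 ± 0.23, adjusted p = 0.00413).

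Irgm1, a regulator of the GTPases that coat pathogen vacuoles, was at 194 and 208 CPM in WT and 130 and 110 CPM in CKO (-0.75 ± 0.14, adjusted p = 0.0159). Gbp8 was at 65.5 and 77.2 against 34.1 and 34.8 CPM (-1.05 ± 0.22, adjusted p = 0.0299), and Gbp4 at 88.7 and 92.2 against 57.4 and 52.5 CPM (-0.72 ± 0.14, adjusted p = 0.0171). Gbp8 and Gbp4 also fell in Dec205 (-1.35 and -1.01, adjusted p = 0.00357 and 0.000853), while Irgm1 did not pass there (0.06, adjusted p = 0.882). Among those not called, Ifi47 was at 260 and 248.5 against 333 and 320 CPM (adjusted p = 0.357). In 9 of the 18 both CKO libraries lay below both WT libraries and in 2 above them, against 18.4% and 21.8% of all members. Without CKO replicate 2 there were 0 calls in this family, without WT replicate 2 the 3 falls were not called and 1 gene was called higher, and without CKO replicate 1 there was 1 call.

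The promoters of a gene that rose and of one that fell are set side by side because both hold the interferon-stimulated response element, here the letters GAAANNGAA on either strand, in capitals (read on the other strand in Ifit3; the 2 overlapping matches of Irgm1 run together).
Ifit3, chr19:34583369-34583528, plus strand: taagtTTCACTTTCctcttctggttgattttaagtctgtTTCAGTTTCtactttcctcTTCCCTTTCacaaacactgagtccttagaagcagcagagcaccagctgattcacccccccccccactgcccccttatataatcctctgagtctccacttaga
Irgm1, chr11:48871421-48871480, minus strand: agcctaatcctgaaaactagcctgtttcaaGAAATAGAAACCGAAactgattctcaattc
The stretch of Ifit3 had 3 matches and that of Irgm1 had 2. The letters occurred in 57.1% of 42 windows of the interferon list and 81.8% of 11 windows of the GBP and IRG list, against 7.25% of members' windows and 8.56% of all windows. They were in 13.6% of the windows of members called higher and 16.3% of those called lower.

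Of 24 genes of interferon production through TLR7 and TLR9, 0 rose and 0 fell, with a median of -0.04. The chaperone Unc93b1 was at 1831 and 1781 against 1887 and 1881 CPM (adjusted p = 0.921) and the adaptor Myd88 at 144 and 171 against 177 and 160 CPM (adjusted p = 0.939). Tlr2, a receptor for bacterial lipoproteins, rose from 10.5 and 15.6 to 34.1 and 29.5 CPM (1.28 ± 0.17, adjusted p = 0.00135), and its partner Tlr1 had 1 count in WT and 69 in CKO, a ratio of 70.5 with an exact counting interval from 12.2 to 2820. Tlr1 lost its call without WT replicate 1, WT replicate 2 or CKO replicate 1 (adjusted p up to 0.0832). These were the called genes, 2 of 14 members, of the list of other Toll-like receptors (14.3% higher, against 1.6% of all members).

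Among 28 inhibitory and ITAM-linked receptors 1 rose and 1 fell. Cd200, the ligand of an inhibitory myeloid receptor, rose from 121 and 124 to 208 and 212 CPM (0.78 ± 0.16, adjusted p = 0.0302), a call lost when any 1 of the 4 pDC libraries was left out (adjusted p up to 0.152). Cd244, a SLAM family receptor, fell from 128 and 145 to 82.4 and 67.7 CPM (-0.86 ± 0.11, adjusted p = 0.0013). Of 17 cytokines and chemokines 0 were called, and of 18 MHC class II genes 0. Psmb10, an immunoproteasome subunit, was the 1 gene called among 23 of MHC class I presentation (117 and 121 against 158 and 169 CPM), and its call too was lost without any 1 of the 4 (adjusted p up to 0.159).

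Of 24 members of the list of apoptosis regulators, 4 rose (16.7%) and 1 fell, against 1.6% and 0.405% of all members. The median log2 fold change of the list was 0.16. The 3 copies Bcl2a1a, Bcl2a1b and Bcl2a1d of the survival gene A1 rose by 1.40, 1.45 and 1.29 on the log2 scale, but they share sequence and count as 1 observation. Bcl2a1a was not called without WT replicate 1 or CKO replicate 2 (adjusted p up to 0.138). Bcl2l11, which encodes the death activator BIM, fell from 140 and 128 to 82.0 and 93.0 CPM (-0.62 ± 0.14, adjusted p = 0.0401), a call that was lost when any 1 of the 4 libraries was left out (adjusted p up to 0.248). Bcl2l14, a distant relative of BCL2, rose from 5.88 and 3.66 to 23.3 and 16.6 CPM (2.06 ± 0.21, adjusted p = 0.00032). It lies beyond Etv6 on chromosome 6, starting 126171 bases after its end. In Dec205 Bcl2l14 went the other way, from a mean of 369.8 to 161 CPM (-1.20 ± 0.18, adjusted p = 0.00192), and the effects in pDC and Dec205 differed by 3.27 (adjusted p = 0.000187). The survival gene Mcl1 was at 675 and 682 against 654 and 648 CPM (adjusted p = 0.946).

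The genes that fell were fewer and changed less. Ggta1, the galactosyltransferase that makes the alpha-gal epitope, was at 35.1 and 25.4 CPM in WT and 13.1 and 12.5 CPM in CKO (-1.24 ± 0.21, adjusted p = 0.00952). Fam49a, the CYRI-A protein that restrains Rac signalling to WAVE, fell from 22.6 and 29.9 to 12.5 and 12.3 CPM (-1.09 ± 0.14, adjusted p = 0.0013). Klf10, a TGF-beta-induced zinc finger repressor, fell from 72.0 and 61.9 to 30.8 and 41.1 CPM (-0.90 ± 0.16, adjusted p = 0.0118) and was the only call among 28 immediate-early genes. Herpud1, of ER-associated degradation, fell from 1578 and 1819 to 1097 and 1200 CPM (-0.56 ± 0.09, adjusted p = 0.00388), alone among 24 genes of the secretory pathway and unfolded protein response. Dnase1l3, a secreted nuclease that digests chromatin in microparticles, fell from 38.4 and 28.8 to 21.5 and 17.4 CPM (-0.79 ± 0.16, adjusted p = 0.0241). Itpripl2, Baiap2, Stom and Dynlt1a completed the 15 largest falls among genes averaging 3 or more in log2 CPM, with log2 fold changes from -1.40 to -0.69.

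At lower levels, Slc15a2, the peptide transporter PEPT2, was at 4.59 and 17.7 CPM in WT and 0.370 and 0 CPM in CKO (-5.85 ± 1.23, adjusted p = 0.0291). The fold change of Slc15a2 was -4.12 in Dec205 (adjusted p = 0.0432), -5.55 in Esamlo (adjusted p = 0.0538) and -4.38 in Esamhi (adjusted p = 0.0958), all on the log2 scale. Ptpn22, a phosphatase of antigen receptor signalling, fell from 9.88 and 9.40 to 4.97 and 4.39 CPM (-1.04 ± 0.13, adjusted p = 0.00108). Mcu, the calcium uniporter of mitochondria, was at 5.88 and 8.08 against 2.59 and 0.857 CPM (-2.01 ± 0.42, adjusted p = 0.0271), and Tnk2, the kinase ACK1, at 8.12 and 5.44 against 1.90 and 0.643 CPM (-2.41 ± 0.50, adjusted p = 0.0271). Asb2, a substrate receptor of ubiquitin ligases that targets filamins, was at 1.603 and 3.51 against 0.846 and 0.804 CPM (adjusted p = 0.0354), Samd1, a reader of CpG islands, at 2.88 and 2.13 against 1.06 and 0.696 CPM (adjusted p = 0.0435), Serpina3f, a serine protease inhibitor, at 11.3 and 10.4 against 5.60 and 5.79 CPM (adjusted p = 0.0339), and the lysosomal acid phosphatase Acp2 at 7.16 and 7.16 against 4.18 and 3.59 CPM (adjusted p = 0.0251). Of the 10 falls averaging 0 to 3 in log2 CPM 1, Ptpn22, stayed called whichever pDC library was left out. The others lost their call without WT replicate 1 in 4 cases, WT replicate 2 in 7, CKO replicate 1 in 7 and CKO replicate 2 in 8, with an adjusted p of up to 0.322, and up to 0.207 for Slc15a2. Of the 10 rises in that range 6 stayed called throughout.

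Of the 15 falls averaging 3 or more in log2 CPM, Cd244 and Fam49a stayed called whichever library was left out. The others lost their call without WT replicate 1 in 7 cases, WT replicate 2 in 8, CKO replicate 1 in 9 and CKO replicate 2 in 11, with an adjusted p of up to 0.239. Of the 15 rises in that range 13 stayed called throughout, the exceptions being Pdcd1 and a gene model without a name.

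Some called genes outside the naming rule had smaller p-values and are given for that reason, chosen after their values were seen. Grap, an adaptor that links receptors to SOS and RAS, was at 108 and 110 CPM in WT and 313 and 301 CPM in CKO (1.497 ± 0.10, adjusted p = 6.31e-06). Stard3, which carries cholesterol between endosomes and ER, rose from 86.0 and 84.2 to 215 and 211 CPM (1.32 ± 0.10, adjusted p = 2.07e-05). Evl, an Ena/VASP protein of actin filaments, rose from 35.7 and 30.4 to 96.9 and 91.8 CPM, and Btla, an inhibitory receptor of the CD28 family, from 46.5 and 61.7 to 168 and 158 CPM (1.59 ± 0.15, adjusted p = 0.000102). In each of these 4 genes the 2 libraries of a group lay close together and far from the other group.

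Basic cell functions showed few or no called genes. Of 38 nuclear genes of oxidative phosphorylation, 46 ribosomal protein genes, 20 of cholesterol synthesis and 23 DC growth factor receptors and signalling genes, 0 were called, with medians from -0.02 to 0.10. The receptor Flt3, on which DC development depends, was at 401 and 407 against 486 and 456 CPM (adjusted p = 0.468). Hspa8 fell among 13 heat shock genes (660 and 614 against 506 and 484 CPM) and Slc16a3, a lactate exporter, rose among 17 glycolysis genes, from 0.321 and 0.0508 to 1.85 and 3 CPM. Among 22 genes of costimulation and maturation 0 rose and 2 fell: Traf1, an adaptor of TNF receptors, at 83.5 and 68.7 against 56.9 and 55.3 CPM (adjusted p = 0.0262), and Socs2, a feedback inhibitor of cytokine receptors, at 1.34 and 1.47 against 0.317 and 0.161 CPM (adjusted p = 0.0128). Hspa8 lost its call when any 1 of the 4 pDC libraries was left out (adjusted p up to 0.236), Traf1 in 3 of the 4 cases (up to 0.188) and Socs2 in 2 (up to 0.1395).

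**Figure D5:**
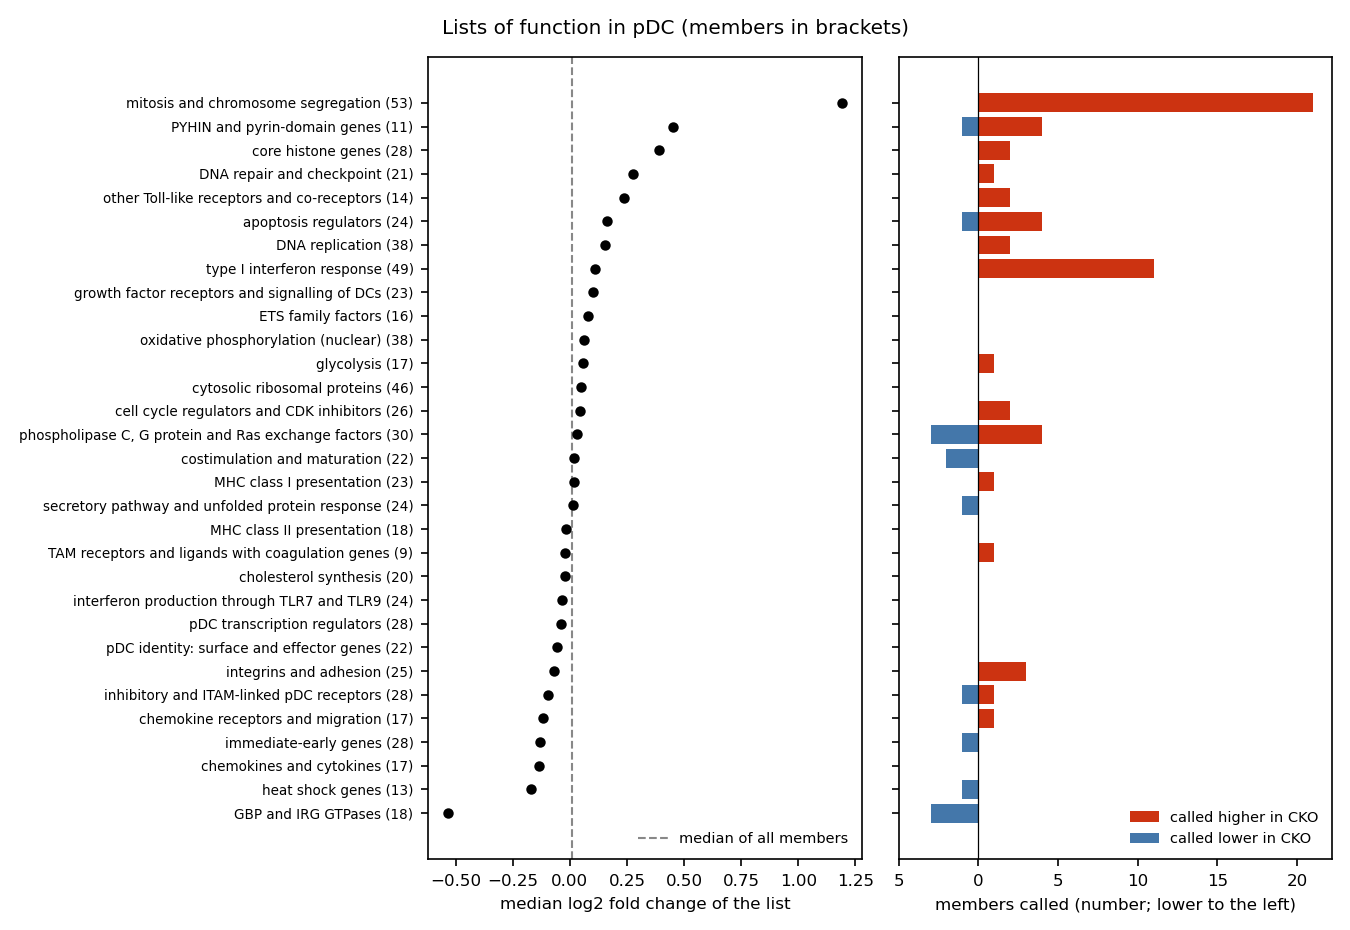
Lists of function in pDC, ordered by the median log2 fold change of CKO against WT (left, with the median of all members as a dashed line) and with the number of members called higher (red, to the right) and lower (blue, to the left). The list of mitosis stands at the top with a median of 1.19 and 21 called higher, and GBP and IRG GTPases at the bottom with -0.53 and 3 called lower.

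Markers of other cells were looked at in the same libraries. Of 11 genes of pDC-like or transitional DCs 1 rose, Ms4a4c (11.1 and 16.4 against 46.5 and 48.3 CPM), while Siglec1 was at 0 or 0.0508 CPM. In 5 of the 11 both CKO libraries lay above both WT libraries and in 0 below, against 21.8% and 18.4% of all members. Their median log2 fold change was 0.29. The summed CPM of that list was 508.8 and 517.5 in WT and 562.4 and 570.6 in CKO. The monocyte genes Ace, Fcgr1, F13a1 and Vcan were at 0 in both WT libraries and at or under 0.423 CPM in CKO, and the macrophage genes Timd4 and Mertk at 0 in all 4. Other genes of these lists were expressed: 8 of 14 monocyte and 9 of 12 macrophage genes were members. Ly6c2 was at 1976 and 1952 against 1361 and 1550 CPM, and Ccr2 at 289 and 304 against 248 and 218 CPM. Cd163 was at 18.1 and 17.9 against 15.9 and 14.6 CPM. The summed CPM of the macrophage list was 35.4 and 40.1 in WT and 31.2 and 26.7 in CKO. The cDC1 genes Xcr1 and Batf3 were at most at 2.08 and 0.908 CPM, and the cDC2 genes Esam and Clec4a4 at 0. Clec9a of the cDC1 list was at 125 and 127 against 105 and 104 CPM (adjusted p = 0.951), and Sirpa of the cDC2 list at 466 and 439 against 630.1 and 608 CPM (adjusted p = 0.579). The summed CPM of the cDC1 list was 431.7 and 389.3 in WT and 393.8 and 385.0 in CKO, and that of the cDC2 list 1950 and 1795 against 1906 and 1932. Of 10 DC and lymphoid progenitor genes 1 rose, Sox4 (39.3 and 41.3 against 76.9 and 76.5 CPM), and the summed CPM of that list was 3363 and 3268 in WT and 3897 and 4435 in CKO. Most of it was Ly6d, at 2328 and 2212 against 2725 and 3362 CPM (adjusted p = 0.849). Cd34 was at 0.962 and 0 CPM and Mpo at 2.19 and 0 CPM in WT, and both were at 0 in CKO. The summed CPM of the basophil and mast cell list was 12.87 and 1.067 in WT and 0.1585 and 0 in CKO, mostly from Prss34 in WT replicate 1 (9.56 CPM). Sums were 8.493 and 15.34 against 15.01 and 14.73 for neutrophil, 291.1 and 293.1 against 372.3 and 336.9 for NK and ILC, and 55.18 and 59.7 against 60.09 and 63.86 for erythroid and platelet genes. The summed CPM of the T cell list was 1136 and 957 in WT and 1279 and 1209 in CKO, most of it from Cd4 and Cd8b1, with Cd3e at 8.39 and 2.95 against 5.92 and 6.70 CPM. Those of the monocyte list were 2314 and 2298 against 1656 and 1813, and of the plasma cell list 2784 and 3011 against 3117 and 2240. No gene of the B cell, T cell, monocyte, macrophage or plasma cell lists was called, and 1 of 7 cDC2 genes was, the integrin Itgax. The part of the markers of all these other cells, transitional DCs among them, in the results above was not tested.

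The 233 calls in pDC were set against the CKO effect in the other subsets over the same 11608 genes, in which Dec205 had 817 called (7.04%; 3.57% higher and 3.47% lower), Esamlo 61 (0.525%; 0.465% and 0.0603%) and Esamhi 99 (0.853%; 0.689% and 0.164%). In Dec205 72 of the pDC genes were called in the same direction, 30.9% of the pDC calls and 8.81% of the Dec205 calls, and 6 in the opposite direction. In Esamlo 19 were shared in direction (8.15% and 31.1%) and in Esamhi 18 (7.73% and 18.2%). The 9 genes called higher in all 4 subsets were Chst10, Col17a1, Grap, Itgax, Mfsd10, Plcb4, Pros1, Rnaset2b and Scimp. Col17a1, a hemidesmosome collagen, rose less in pDC (14.4 and 8.03 against 30.3 and 34.9 CPM) than elsewhere, by a difference from the mean of the other subsets of -4.40 ± 0.41 (adjusted p = 0.000355). No gene called lower in pDC was called lower in more than 1 of the other 3 subsets.

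The difference between the CKO effect in pDC and the mean effect in the other 3 subsets passed the test in 184 members (1.59%), 121 upwards and 63 downwards. Of the 233 genes called in pDC, 114 had a larger effect there by that test, 96 of those that rose and 18 of those that fell. In 1 the effect was smaller and 118 did not pass the test. Because the 233 were chosen by their effect in pDC, which is part of the test, these counts favour larger effects there. Without CKO replicate 1 the number of members with a difference was 112, and without CKO replicate 2 it was 111. Against single subsets, the effect in pDC differed in 299 members for Dec205 (2.58%; 1.52% upwards and 1.06% downwards), 88 for Esamlo (0.758%; 0.517% and 0.241%) and 159 for Esamhi (1.37%; 0.87% and 0.5%). Without CKO replicate 1 the count for Dec205 was 193, without CKO replicate 2 it was 171, and that for Esamlo without WT replicate 1 was 136. The difference was 2.02 ± 0.14 for Rasgef1b (adjusted p = 2.71e-05), which was at 47.4 to 57.0 CPM in WT pDC but at 598 to 2325 CPM in the WT libraries of the other subsets. It was 3.36 for Plpp2, 1.79 for Itgam and -1.86 for Nlrp3. For Oas2, Rtp4 and Pydc3, which rose in Dec205 by 4.67, 5.95 and 5.72, it did not pass (adjusted p = 0.241, 0.0842 and 0.745). Sox4, Bcl2l14, Ctsc, Cacnb3, Clec2i and Mtmr4 were the 6 genes called in opposite directions in pDC and Dec205. Sox4, a progenitor transcription factor, rose in pDC (0.93 ± 0.20) and fell in Dec205 (-1.87 ± 0.23), a difference of 2.80 (adjusted p = 0.000593). Its call in pDC was lost when any 1 of the 4 pDC libraries was left out (adjusted p up to 0.1595).

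Called genes lay on all 19 autosomes, making up 0.699% to 3.04% of the members of each. Of the 233, 44 had another called gene within 200000 bases (18.9%), and for 36 it changed in the same direction. The 19 stretches so formed held members of 1 family in several cases: Pydc4, Pyhin1 and Pydc3 with BC094916 on chromosome 1, Ms4a4c, Ms4a6c and Ms4a6b on chromosome 19, Ifit2, Ifit3 and Ifit3b on chromosome 19, Oas2, Oas1c and Oas1b on chromosome 5, and the integrins on chromosome 7. Gbp8 and Gbp4 on chromosome 5, from 105012513 to 105139586, fell together, as did Stom and Ggta1 on chromosome 2. Cdc6 and Top2a lay next to each other on chromosome 11, from 98907709 to 99024199. Family members side by side can share reads, so such stretches hold fewer independent observations than genes.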

How the data were processed

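RNA of sorted spleen DCs was made into cDNA and amplified with a low-input full-length kit (SMART-seq v4), per the labels' protocols; that kit marks neither strand nor molecule. The authors deposited 1 table of raw counts for 24116 genes in 16 libraries; per the submitters' processing notes it was made with bcl2fastq, Trimmomatic 0.36, Bowtie2 2.2.9 and mm10. What counted the reads, with which annotation and strand setting, is not given in the sources used here.

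The counts were tested with edgeR 4.0.16 in R 4.3.3 by the quasi-likelihood test, robust, with TMM scaling and 1 coefficient for each of the 8 groups, so that all 16 libraries gave the spread (8 residual degrees of freedom). Of the 24116 genes 13790 passed filterByExpr; p-values were adjusted over these by Benjamini-Hochberg and called under 0.05. Members were tested autosomal genes, placed by Entrez identifier in RefSeq's GRCm38.p6 (24061 genes placed), with a mean of 0.5 CPM or more in pDC. Of the tested genes 473 were not autosomal and 1709 were below that mean. Fold changes are log2 as fitted by edgeR with its default prior count, and ± is the SE. A prior count of 2 was used only for log2 CPM values. The effect in pDC was set against the mean effect of the other subsets as a contrast of the same fit.

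Named genes were called members with both CKO libraries beyond both WT libraries: the 15 largest rises and falls at a mean log2 CPM of 3 or more, the 10 largest of each between 0 and 3, called members of the lists, and up to 4 well-known members of a list that were not called. Members and lists were chosen with earlier results of these data known. In simulated counts for 13515 genes of this comparison, 48% of 2-fold and 75% of 4-fold changes were recovered, and 3.15% of calls were false. These counts were drawn from the means and spread that edgeR had fitted and went through the same test. They held no deviating library and no effect of sex, so the false share does not measure that of the real calls. Replicates of a group differed beyond counting noise (chi-square per degree of freedom 19.8 in WT and 18.2 in CKO). Alternatives were other scalings, filters, fits and DESeq2 1.42.0, and leaving out each library. Some genes counted in the lists are not reported here by name.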

Additional observations from a re-analysis of the deposited data

Results flagged for a closer look

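Among the 50 genes ranked by size of change (15 rises and 15 falls averaging 3 or more in log2 CPM, and 10 of each averaging 0 to 3), there were 17 for which the CKO effect in pDC differed from the mean effect in the other 3 subsets by the test of the difference itself (edgeR's quasi-likelihood test, Benjamini-Hochberg adjustment over all tested genes, 2 libraries per group). Called members of the lists outside that ranking, such as Top2a, are not counted here. All differences are log2, pDC minus the others. The 50 genes were ranked by their effect in pDC, which is also part of this test, so the ranking favours its passing. The effect was higher in pDC for Ube2c (4.16, adjusted p = 0.00183), Kif22 (4.04, adjusted p = 0.00154), Plpp2 (3.36, adjusted p = 0.00738), Bcl2l14 (2.52, adjusted p = 0.000385), Pdcd1 (2.29, adjusted p = 0.0109), Rasgef1b (2.02, adjusted p = 2.71e-05), Rgs12 (2.01, adjusted p = 0.00525) and Itgam (1.79, adjusted p = 0.0266). It was lower in pDC for Tnk2 (-2.90, adjusted p = 0.0246), Nlrp3 (-1.86, adjusted p = 0.00301), Serpina3f (-1.48, adjusted p = 0.00664), Ggta1 (-1.27, adjusted p = 0.0216), Klf10 (-0.97, adjusted p = 0.022), Ptpn22 (-0.92, adjusted p = 0.00728), Irgm1 (-0.92, adjusted p = 0.0145), Fam49a (-0.87, adjusted p = 0.0166) and Cd244 (-0.66, adjusted p = 0.0241).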

How the results depend on the processing

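The 233 calls in pDC numbered 231 with RLE factors, 244 with library size alone, 248 without the filter and 166 at a mean of 5 CPM or more. There were 84 with only the 4 pDC libraries (67 of them among the 233), 104 against a fold of 1.5 and 478 with DESeq2, which called all 233 and had 66.9% higher in place of 79.8%. Leaving out 1 pDC library gave 152 to 261. The 2 scalings moved the median log2 fold change by -0.02 and 0.01.

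For the difference between pDC and the mean of the other subsets (184), DESeq2 gave 441 and leaving out a library 111 to 237. For the difference from Dec205 (299) these were 771 and 171 to 347, from Esamlo (88) 248 and 63 to 136, and from Esamhi (159) 357 and 106 to 172.

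Replicate numbers are shared between groups, but deviations of same-numbered pDC libraries correlated at -0.0016, so the numbers were not taken to pair them. With a replicate block, 157 genes were called in pDC, and the differences numbered 118 from the mean of the others, 185 from Dec205, 37 from Esamlo and 83 from Esamhi; the cause was not tested.

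Of 1133 values of 103 followed genes under the alternatives, 811 stayed on their side of the threshold, 322 were no longer called and 0 changed sign. A count of 3 equalled at most 0.161 CPM in pDC, and levels under it were not detectable at this depth.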

Other observations

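The 16 called genes with no count in either WT library, Kif2c and Oas1c among them, were led by Fstl1, a secreted glycoprotein of the follistatin family, at 7.45 and 5.41 CPM in CKO and at least 82.3-fold higher against 3 counts over the WT libraries. Fbxo10, a ubiquitin ligase subunit that targets BCL2, was at least 66.5-fold higher (4.28 and 6.11 CPM), Fam198b at least 62.6-fold (5.18 and 4.61 CPM) and Marveld2, the tight junction protein tricellulin, at least 44.9-fold (4.60 and 2.41 CPM). These genes were chosen after their values were seen.

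Armc3, an armadillo repeat protein, rose from 1.18 and 1.88 to 19.4 and 23.2 CPM (3.80 ± 0.72, adjusted p = 0.0159), and Caprin2, an RNA-binding protein of the caprin family, from 1.23 and 0.915 to 14.4 and 11.3 CPM (3.58 ± 0.79, adjusted p = 0.0371). Both calls were lost when any 1 of the 4 pDC libraries was left out, with an adjusted p of up to 0.122 for Armc3 and 0.242 for Caprin2.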
